A study of Mus musculus with 3 samples.

Results

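The genes described are the cytosolic ribosomal protein genes, which encode the proteins of the ribosome that translates nuclear messages. They were chosen by symbol alone, as Rpl or Rps followed by a number and at most 1 letter and 1 further digit, without the entries marked as pseudogenes and with at least 50 UMIs (unique molecular identifiers, 1 per captured transcript) over all libraries. Of 55357 listed genes 85 fitted the symbol and 82 also reached the minimum, 48 of the large and 34 of the small subunit. Just inside the minimum were Rps3a2 with 76 UMIs and Rps3a3 with 82, and outside it were Rpl3l with 40, Rps12l1 with 3 and Rpl10l with 2. The 82 genes held 8567405 of 159057144 UMIs, 5.386%. Another 8 cytosolic ribosomal genes have other symbols and were counted apart (among them Rplp0, Rplp1, Rplp2, Rpsa, Fau, Rpl36al and Rack1).

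The cells came from cerebral tissue of male C57BL/6 mice 6 to 8 weeks old, around a left-sided lesion in the injured mice. Each of the 3 groups gave 1 library. The sham mice had no injury, and the mice of the other groups had traumatic brain injury (TBI). These received phosphate-buffered saline (TBI+PBS) or the cytokine IL-25 (TBI+IL-25), each for 3 days. The labels give 1 µg of IL-25 per mouse within 30 minutes of the injury, then daily dosing. They name no transgene and do not say how many animals a library holds. With 1 library a group there is no replicate check: every difference below is between libraries, no test was possible, and each interval is a 95% interval that covers counting error only.

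A ribosome joins a small subunit, which reads the message, to a large subunit, which makes the peptide bond, and each subunit holds 1 copy of nearly every one of its proteins. Most of these messages begin with a C and a run of pyrimidines at the very 5′ end, the 5′ terminal oligopyrimidine (TOP) tract, through which the mTOR pathway and the protein Larp1 set how strongly they are translated. Growing and activated cells, lymphocytes among them, are known for high levels of these messages. Several members also have paralogues (Rps27l, Rpl22l1, Rpl39l and others) whose use differs between tissues.

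The sequences at the start of 7 of the genes show how the annotated starts differ. Each line gives 15 bases before the annotated start and the first 15 bases of the transcript, from RefSeq on GRCm38.p6, 5′ to 3′ on the transcribed strand, with the pyrimidine run that opens at the start in capitals. The first 4 genes hold such a run, and Rps18 and Rpl38 are among the members that differ most from each other in the comparisons below. Rps2, Rps4x and Rpl7l1 are shown because they also stand at the ends of the ranking and hold no run at their annotated start.
Rps18: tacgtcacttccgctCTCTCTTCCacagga
Rps27: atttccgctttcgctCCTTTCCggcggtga
Rpl38: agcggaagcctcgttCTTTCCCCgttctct
Rps21: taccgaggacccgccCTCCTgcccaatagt
Rps2: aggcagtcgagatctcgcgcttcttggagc
Rps4x: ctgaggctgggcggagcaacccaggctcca
Rpl7l1: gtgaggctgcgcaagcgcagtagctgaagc
On GRCm38.p6 these windows lie at chr17:33955651-33955680 on the minus strand for Rps18, chr3:90213634-90213663 minus for Rps27, chr11:114668565-114668594 plus for Rpl38 and chr2:180257364-180257393 plus for Rps21. They lie at chr17:24720048-24720077 plus for Rps2, chrX:102189377-102189406 minus for Rps4x and chr17:46782642-46782671 minus for Rpl7l1. The reads were counted on GRCm39, so these positions were matched to the counts by symbol only.

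Of the 82 members 59 had an entry in the RefSeq table. The motif searched was a C exactly at an annotated start followed by at least 4 bases that are each C or T, on the transcribed strand. It was found in 13 of the 59 members (22.03%) and in 813 of 27025 genes with an entry (3.008%). Within 10 bases of the start 37 members (62.71%) and 34.4% of all genes held such a run. None of 69 mitochondrial ribosomal protein genes, which serve a separate ribosome, held the run at the start, and 31 of them (44.93%) held one within 10 bases. The 13 members were Rps15a, Rps21, Rps18, Rpl28, Rpl35a, Rps27, Rpl14, Rpl38, Rpl35, Rps10, Rpl15, Rps6 and Rpl32l.

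The libraries held 39536447 UMIs over 8939 barcodes (sham), 58148289 over 10643 (TBI+PBS) and 61372408 over 14222 (TBI+IL-25), and 8714, 10288 and 13520 cells were kept. The TBI+IL-25 library stood apart in 2 respects that cannot be told apart from its treatment. Its file header names another Cell Ranger version (7.2.0 against 7.1.0), and ribosomal RNA genes took 0.802% of its UMIs against 0.0369% in sham and 0.0451% in TBI+PBS. Pairs of libraries shared 24 to 39 cell barcodes. Cells were grouped into 27 clusters without the ribosomal protein genes, and 26 clusters were given 1 of 13 class names from marker genes. No cluster was named neuron-like. Cluster 10, which held 0, 967 and 78 cells, stayed unnamed.

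Ribosomal protein messages took a share of UMIs that differed more between cell classes than between libraries. Lymphocytes were at the top. In T cell-like cells the share was 20.9% in sham (14 cells), 19.4% after TBI+PBS (65 cells) and 22.6% after TBI+IL-25 (90 cells). B cell-like cells held 17.6% after TBI+PBS and 23.8% after TBI+IL-25, from 23 and 26 cells, and none were seen in sham. Their median per cell was 23.1% and 23.8%, closer together than the summed shares. Monocyte/macrophage-like cells followed with 14.7%, 10.4% and 13.3%, the sham value from 10 cells. Neuroblast-like cells, the immature neurons of this tissue, held 8.16%, 7.83% and 9.60%. At the other end astrocyte-like cells held 1.52%, 2.24% and 3.14%, neutrophil-like cells 2.68% and 3.503% in the injured libraries, and oligodendrocyte-like cells 2.78%, 3.67% and 4.83%. Microglia-like cells, the most numerous class of sham and TBI+PBS, lay between these at 4.44%, 6.94% and 9.42%. In every library the T cell-like share lay above those of all the glial and vascular classes.

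**Figure D1:**
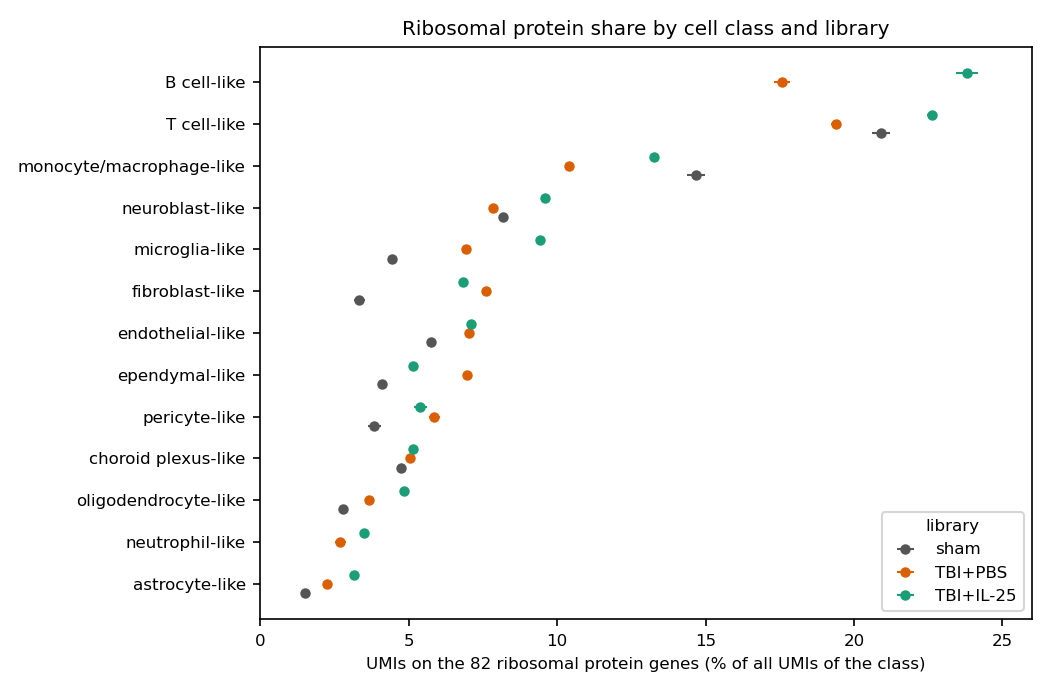
Share of UMIs on the 82 ribosomal protein genes (% of all UMIs of the class, x axis) in each of 13 cell classes, with points for the 3 libraries and bars for 95% Clopper-Pearson intervals. T cell-like cells lie between 19.4% and 22.6% and astrocyte-like cells between 1.52% and 3.14%.

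The share was lowest in sham and highest in TBI+IL-25 in microglia-like, astrocyte-like, oligodendrocyte-like, endothelial-like and choroid plexus-like cells, but not in every class. In oligodendrocyte-like cells the median per cell was 2.66%, 2.72% and 4.05%. There sham and TBI+PBS lay closer together than their summed shares. The microglia-like share was 1.56 times as high in TBI+PBS as in sham (interval 1.56 to 1.57) and 1.36 times as high in TBI+IL-25 as in TBI+PBS (1.35 to 1.36). For astrocyte-like cells the same ratios were 1.48 (1.47 to 1.48) and 1.40 (1.40 to 1.41). Over all classes the share was higher in TBI+PBS than in sham in 8 of 11 and lower in 3 (T cell-like, monocyte/macrophage-like and neuroblast-like). Between TBI+IL-25 and TBI+PBS it was higher in 10 of 13 and lower in ependymal-like, fibroblast-like and pericyte-like cells. Endothelial-like cells, which form the blood-brain barrier, held 5.76%, 7.02% and 7.08%, and their injured libraries did not differ beyond counting error (ratio 1.01, interval 0.992 to 1.03). Choroid plexus-like cells stayed within 4.75% to 5.14%. Malat1 moved in the opposite order to the ribosomal share in the large classes, at 3.96%, 2.60% and 2.01% of UMIs in microglia-like and 14.5%, 11.8% and 9.52% in astrocyte-like cells. Mitochondrial genes took 0.861%, 1.37% and 1.34% in microglia-like and 2.17%, 2.28% and 3.31% in astrocyte-like cells. The part of either in the share was not tested.

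Clusters within a class differed in their share, and the libraries held them in different numbers. In microglia-like cells most sham cells lay in cluster 1 (2267 cells) and cluster 2 (2412 cells), where the sham shares were 4.28% and 4.42%. The largest TBI+PBS cluster was cluster 0 (1842 cells, 6.03%), and cluster 8, led by Spp1 and Lpl, held 858 TBI+PBS cells at 9.58% against 15 sham cells. The largest TBI+IL-25 cluster was cluster 6 with 1860 cells at 9.20%. Within clusters with at least 20 cells in both libraries the TBI+PBS share was close to that of sham, at 1.11 times in cluster 0, 1.11 times in cluster 1 and 1.03 times in cluster 2, and at 1.29 times in the interferon cluster 11. In astrocyte-like cells cluster 3 was lower in TBI+PBS, at 0.979 times (0.966 to 0.992). Clusters 5, 9 and 14 stood at 1.11, 1.13 and 1.05 times. Over all classes the TBI+PBS share was higher in 10 of 12 clusters of that size and lower in 2. A ratio with clusters weighted equally, here and below, uses only clusters with at least 20 cells in both libraries. Each cluster has the same weight in both libraries, its UMIs in the 2 together. Against sham this leaves out microglia-like clusters 6, 8 and 16 (11, 15 and 14 sham cells). It also leaves out astrocyte-like clusters 4, 7, 13 and 26 (1, 0, 1 and 3 sham cells). Over the clusters that remain the TBI+PBS to sham ratio was 1.09 in microglia-like and 1.07 in astrocyte-like cells. The whole classes, with those clusters, gave 1.56 and 1.48.

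Within microglia-like clusters 0, 1, 2 and 11 the ratio of TBI+IL-25 to TBI+PBS was above that of TBI+PBS to sham. The later ratio was 1.52 in cluster 0, 1.77 in cluster 1, 1.51 in cluster 2, 1.33 in cluster 11, 1.31 in cluster 6, 1.21 in cluster 8 and 1.04 in the cycling cluster 16. With equal weights the microglia-like ratio was 1.35, near the 1.36 of the whole class. In astrocyte-like cells the equal-weight ratio was 1.15. There cluster 4 (led by Lif; 2710 cells in TBI+IL-25 against 256 in TBI+PBS) and cluster 13 (Lcn2) gave 1.18 (1.17 to 1.19) and 1.00 (0.992 to 1.01), while clusters 3 and 14 gave 1.34 and 1.52. Clusters with at least 20 cells in both libraries numbered 24, without the neutrophil-like and pericyte-like clusters and cluster 26, which had no TBI+IL-25 cells. In 22 of them the TBI+IL-25 share was above that of TBI+PBS, with the interval above 1 in 20. Against sham it was higher in 12 of 12 clusters of that size, by 1.08 to 1.97 times.

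The share also varied with the total UMIs of a cell, and not alike in the libraries. Among microglia-like cells with fewer than 2000 UMIs the share was 1.53% in sham (633 cells), 1.82% after TBI+PBS (311 cells) and 14.3% after TBI+IL-25 (441 cells). Among cells with 4000 to 8000 UMIs it was 4.76%, 6.17% and 9.11%, and with 8000 to 16000 UMIs it was 4.80%, 8.73% and 10.9%. The shallow cells thus held less than the deep ones in sham and TBI+PBS and more in TBI+IL-25. In the same shallow cells Malat1, a nuclear RNA, took 8.19%, 6.95% and 0.844% of UMIs and mitochondrial genes 1.90%, 2.95% and 2.47%. All 10 microglial marker genes were detected in each, at summed levels of 53071, 51528 and 33621 CPM (UMIs of the genes, scaled to a common total of UMIs). The 8 monocyte/macrophage markers summed to 20.05, 64.3 and 82.5 CPM, with 4, 4 and 3 of them at 0. The part of nuclear RNA or depth in these shares was not tested.

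**Figure D2:**
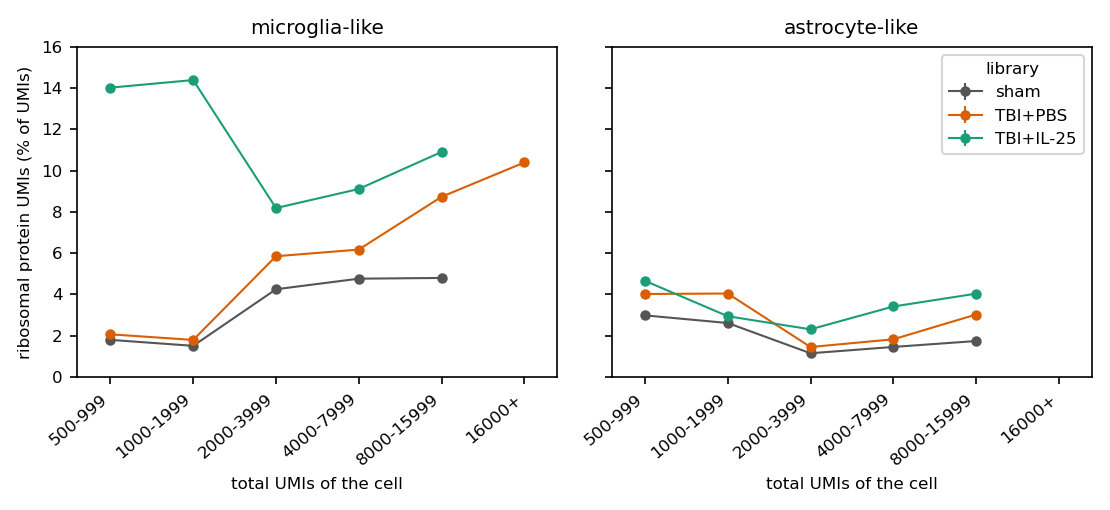
Share of UMIs on the ribosomal protein genes (%, y axis) by the total UMIs of the cell (x axis, bins), in microglia-like and astrocyte-like cells of the 3 libraries, for bins with enough cells to plot. Microglia-like cells of TBI+IL-25 stand at 14.0% and 14.4% in the shallowest bins, where sham and TBI+PBS stand at 1.51% to 2.07%.

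In astrocyte-like cells the shallowest cells stood high in all libraries. Below 1000 UMIs the share was 2.98%, 4.02% and 4.66%, at 2000 to 4000 UMIs 1.15%, 1.45% and 2.31%, and at 8000 to 16000 UMIs 1.74%, 3.03% and 4.04%. Clusters 7 (0, 621 and 1268 cells; Hspb1 and Gfap among its leading genes) and 9 (639, 468 and 355 cells) were astrocyte-like clusters whose median cell lay below 1000 UMIs. Malat1 was at 1.11%, 0.520% and 1.12% of UMIs below 1000 UMIs and at 17.3%, 14.7% and 11.5% in cells of 2000 to 4000 UMIs, so low Malat1 went with a high ribosomal share. The part of depth or nuclear RNA here was not tested.

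Single members were compared as CPM of the class, on 3′ UMI counts that were not divided by gene length. Over all kept cells the 10 with the most counts included Rps24, Rps29, Rpl23, Rps12, Rps2, Rps4x, Rpl9, Rps27a and Rps15a. Rps24, a small-subunit protein mutated in Diamond-Blackfan anaemia, stood at 957 CPM in sham, 1202 after TBI+PBS and 1889 after TBI+IL-25. Rps27a, which is made as a fusion with ubiquitin, stood at 704, 1108 and 1445 CPM (all kept cells). Rps29 stood at 1037, 1205 and 1657 CPM, Rpl23 at 818, 1244 and 1717, and Rps12 at 713, 1242 and 1728. The median member was at 414, 618 and 774 CPM. At the bottom Rpl6l, Rpl39l, Rpl32l, Rps3a3 and Rps3a2 were at or below 3.44 CPM in every library.

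Over all kept cells, where the mix of classes also differs, 78 of 80 members compared were higher in TBI+PBS than in sham, 39 at least 1.5-fold, against 12.9% of 17592 genes, and none was 1.5-fold lower (15.8% of genes). Against TBI+PBS the TBI+IL-25 library was higher for 72 of 82 members, 15 at least 1.5-fold (9.29% of 17962 genes), and 1, Rpl32l with 34 against 52 UMIs, was at least 1.5-fold lower (21.1% of genes). Against sham it was higher for 80 of 82, 65 at least 1.5-fold (16.8% of 17581 genes), and none was 1.5-fold lower (32.6%).

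Between TBI+PBS and sham the microglia-like cells of the injured library held more of nearly every member. Of 82 members 79 had at least 50 UMIs over the 2 sums compared, 77 of these were higher and 2 lower, and 47 were at least 1.5-fold higher while 2 were that much lower. Of all 13068 genes compared in this way 12.7% were at least 1.5-fold higher and 18.8% at least 1.5-fold lower. The median log2 ratio of CPM was 0.65 for the members and -0.14 for all genes. With clusters weighted equally, which leaves out clusters 6, 8 and 16, the members past the fold numbered 2 in place of 49. Of the members compared 61 were then higher and 18 lower.

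Rps2, a protein near the message entry site of the small subunit, had the highest ratio in that comparison. It stood at 639 CPM in sham, 2029 after TBI+PBS and 2395 after TBI+IL-25 in microglia-like cells, 3.18-fold higher in TBI+PBS than in sham (3.11 to 3.24) and 1.18-fold higher again in TBI+IL-25 (1.17 to 1.19). Most of its range thus lay between sham and TBI+PBS. Rpl14 of the large subunit followed the same order, at 349, 875 and 948 CPM. Rps27l stood at 94.8, 240.1 and 349 CPM. Rps18, from the head of the small subunit, stood at 375, 963 and 2099 CPM, and the 2 steps were 2.57-fold and 2.18-fold. Rps18 ranked first between TBI+IL-25 and sham, at 5.60-fold (5.47 to 5.74). Rps6, the target of the S6 kinases downstream of mTOR, stood at 109, 256 and 341 CPM.

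A few members differed little or went the other way in microglia-like cells. Rps27 stood at 673 CPM in sham, 683 after TBI+PBS and 863 after TBI+IL-25, and sham and TBI+PBS did not differ beyond counting error (1.01-fold, 0.992 to 1.04). Rpl21 stood at 1030.2, 1132 and 1201 CPM. Rps4l, a paralogue of Rps4x, was lower in TBI+PBS (37.4 CPM) than in sham (57.7 CPM) or TBI+IL-25 (55.9 CPM), 0.648-fold (0.594 to 0.708). Rpl7l1, a factor of large-subunit assembly rather than a part of the finished ribosome, stood at 94.1, 103 and 101 CPM. Rpl39l passed the minimum with 37 sham and 29 TBI+PBS UMIs, and its ratio of 0.611 has an interval of 0.362 to 1.02.

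In microglia-like cells 74 of 79 members were higher in TBI+IL-25 than in TBI+PBS and 5 lower, and 17 were at least 1.5-fold higher, against 9.87% of all 13362 genes compared. None was 1.5-fold lower, against 14.3% of all genes. The median log2 ratio was 0.48 for the members and -0.08 for all genes. Small-subunit members made up more of the difference. All 32 compared were higher, with a median log2 ratio of 0.53 and a summed level 1.43 times as high (1.42 to 1.43). For the 47 large-subunit members the median was 0.34, the sum was 1.29 times as high (1.29 to 1.29), and the 5 lower members (Rpl38, Rpl6, Rpl7l1, Rpl29 and Rpl41) were all of this subunit. Median-of-ratios size factors raise every log2 ratio of this comparison by 0.11, and then only Rpl38 (0.883-fold) and Rpl6 (0.980-fold) of the 79 stayed below 1.

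Rps14, from the platform of the small subunit, stood at 630 CPM in sham, 1014 after TBI+PBS and 2094 after TBI+IL-25 in microglia-like cells, 2.06-fold higher in TBI+IL-25 than in TBI+PBS (2.03 to 2.10). Rps23, which sits at the decoding centre, stood at 513, 857 and 1726 CPM, and was 2.01-fold higher in TBI+IL-25 than in TBI+PBS. For both the ratio of TBI+IL-25 to TBI+PBS was above that of TBI+PBS to sham. The reverse held for Rpl38, a large-subunit protein known for its part in translating Hox messages. Rpl38 stood at 338, 606 and 497 CPM, so it was 1.79-fold higher in TBI+PBS than in sham and 0.819-fold in TBI+IL-25 against TBI+PBS (0.801 to 0.839). Rpl6 stood at 594, 884 and 804 CPM and Rpl29 at 469, 736 and 724 CPM. Rpl41, the shortest ribosomal protein, stood at 796, 1544 and 1542 CPM, level between the injured libraries.

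**Figure D3:**
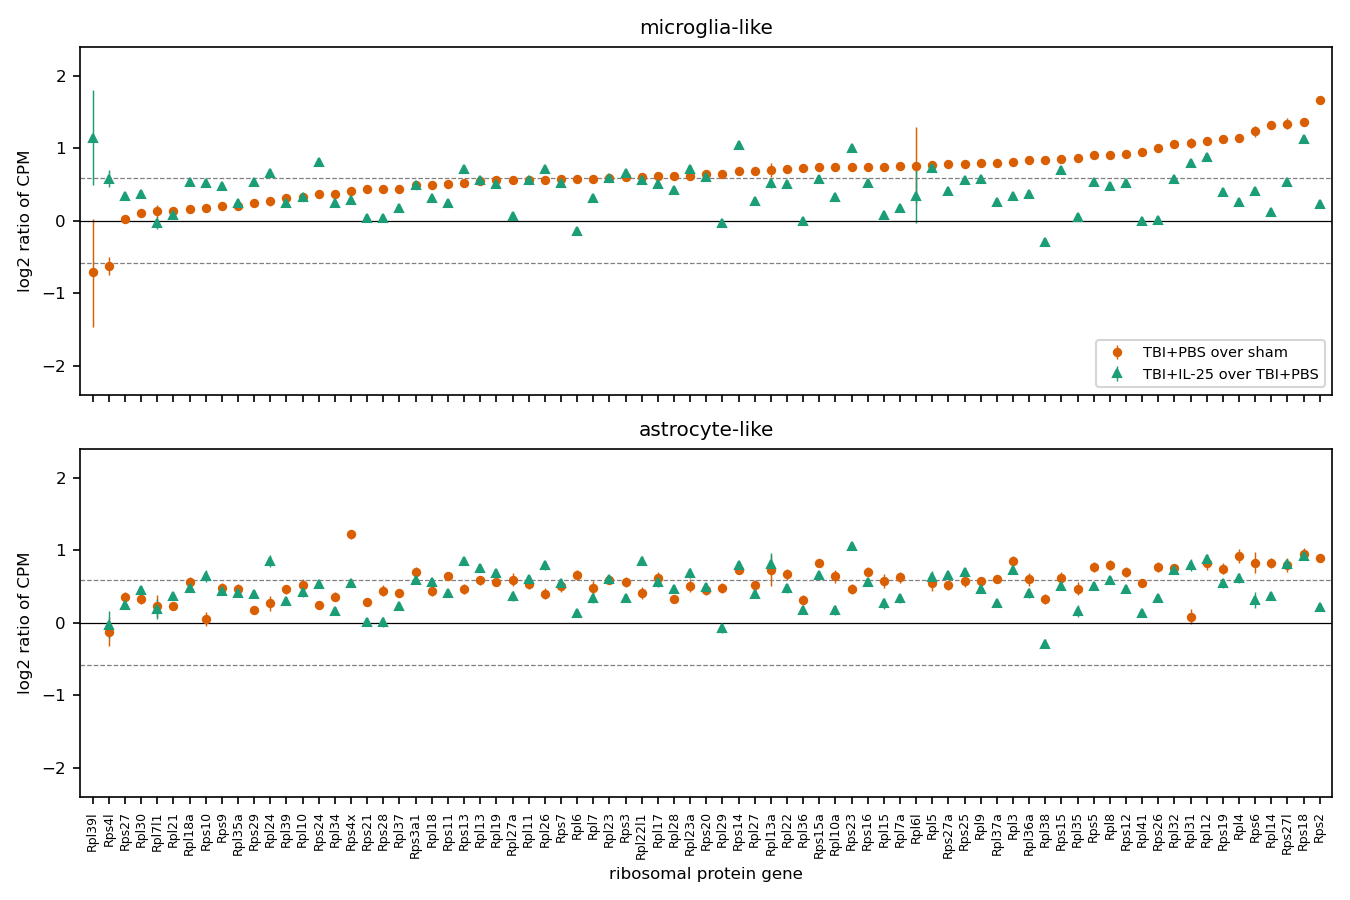
Log2 ratio of CPM (y axis) for ribosomal protein genes with at least 50 UMIs over the 2 sums compared (x axis, ordered by TBI+PBS over sham in microglia-like cells), with 95% counting intervals and dashed lines at 1.5-fold. In microglia-like cells Rps2 stands highest for TBI+PBS over sham (3.18-fold), and Rpl38 stands below 0 for TBI+IL-25 over TBI+PBS in both classes (0.819-fold and 0.820-fold).

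Between TBI+IL-25 and sham 78 of 79 members were higher in microglia-like cells, 67 of them at least 1.5-fold, against 17.7% of 13299 genes. None was at least 1.5-fold lower, against 30.2% of all genes. The median log2 ratio was 1.10 for the members and -0.21 for all genes, and the summed level was 2.12 times as high (2.12 to 2.13). Rpl12, at the base of the stalk that recruits elongation factors, was at 387 CPM in sham and 1525 in TBI+IL-25, 3.94-fold higher. With clusters weighted equally 54 members passed the fold and the summed ratio was 1.72. That setting leaves out clusters 6, 8 and 16, with 1860, 734 and 242 TBI+IL-25 cells. The 3 comparisons share libraries in pairs, so their ratios are not independent of each other.

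In astrocyte-like cells the summed level was lower than in microglia-like cells in each library and followed the same order. Between TBI+PBS and sham 76 of 77 members compared were higher, 33 at least 1.5-fold, against 11.4% of 14095 genes. None was that much lower, against 10.8% of all genes, and the median log2 ratio was 0.56 for the members and -0.04 for all genes. Rps4x, the X-linked form of a small-subunit protein, had the highest ratio, at 241 CPM in sham, 561 after TBI+PBS and 823 after TBI+IL-25, 2.33-fold higher in TBI+PBS (2.24 to 2.42). In microglia-like cells Rps4x stood at 1225, 1631 and 1988 CPM, a smaller ratio over the same libraries. Rpl4, which lines the exit tunnel, stood at 89.8, 171 and 262 CPM in astrocyte-like cells. Rps10 (129, 134 and 210 CPM) and Rpl31 (104, 110 and 190 CPM) did not differ beyond counting error between sham and TBI+PBS. With clusters weighted equally, which leaves out clusters 4, 7, 13 and 26, the members past the fold between these libraries numbered 0. Of the members compared 56 were then higher and 21 lower.

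Astrocyte-like cells held 74 of 77 members at a higher level in TBI+IL-25 than in TBI+PBS, 27 at least 1.5-fold, against 10.1% of 14117 genes. None was that much lower, where 28.1% of all genes were, and the medians were 0.48 and -0.21 on the log2 scale. Rps23 led at 188 CPM in sham, 260 after TBI+PBS and 540.2 after TBI+IL-25, 2.08-fold higher in TBI+IL-25 than in TBI+PBS (2.00 to 2.16). Rps18 stood at 144, 279 and 527 CPM and Rps13 at 224, 310 and 561 CPM. Rpl38 was again lowest, at 182, 229 and 188 CPM (0.820-fold, 0.783 to 0.859), followed by Rpl29 at 169, 236 and 225 CPM. With clusters weighted equally 3 members passed the fold, and 62 were higher and 15 lower. Size factors raise the log2 ratios here by 0.21, and Rpl38 (0.946-fold) was then the only member of 77 below 1.

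Against sham 76 of 77 members were higher in TBI+IL-25 astrocyte-like cells, 68 at least 1.5-fold, against 18.5% of 14307 genes. None was that much lower, where 36.3% of all genes were. The median log2 ratio was 1.05 for the members and -0.26 for all genes. Rps18 stood 3.65-fold, Rps4x 3.42-fold, Rpl12 3.25-fold and Rpl3 3.00-fold higher, while Rpl38 was level (1.03-fold, 0.980 to 1.08). Rps21 was 1.23-fold higher. With clusters weighted equally 13 members passed the fold. That setting leaves out clusters 4, 7 and 13, with 2710, 1268 and 390 TBI+IL-25 cells.

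Members with the pyrimidine run at the annotated start had a lower median ratio than those without in 5 of the 6 comparisons, as a description with no test. The split goes by the exact annotated base. Members without the run thus include some, such as Rps12 and Rpl27a, that hold one within 10 bases of the start. The 6 comparisons share genes and libraries, so they are not independent. In microglia-like cells the median log2 ratio between TBI+IL-25 and TBI+PBS was 0.29 for the 12 members with the run and 0.51 for 46 without. Between TBI+PBS and sham it was 0.74 and 0.60. In astrocyte-like cells the same medians were 0.34 and 0.54, and 0.47 and 0.57. Between TBI+IL-25 and sham the medians were 0.88 and 1.13 in microglia-like and 0.82 and 1.11 in astrocyte-like cells. Rps18 and Rpl38, at the ends of the ranking, both carry the run.

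The make-up of the ribosomal protein UMIs, each member as a share of them, differed between TBI+PBS and TBI+IL-25 in 1 direction across cell classes for some members. Of 75 members that could be compared in at least 10 classes, 7 had a higher share in every class compared and 8 a lower share in every class. The higher ones included Rps18, Rps23, Rps14, Rps24, Rpl26 and Rps27l. The lower ones were Rpl38, Rpl6, Rps28, Rpl41, Rpl36, Rps26, Rpl35 and Rpl15. Between TBI+PBS and sham no member was higher in every class and 2 were lower in every class (Rpl35a and Rps10), of 74 compared. Against sham the TBI+IL-25 library had 12 members higher and 9 lower in every class, of 73. Library, Cell Ranger version and treatment cannot be told apart here.

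Rps18 took 0.843% of the ribosomal protein UMIs of microglia-like cells in sham, 1.39% after TBI+PBS and 2.23% after TBI+IL-25. In T cell-like cells it took 1.18%, 1.26% and 2.44%, and in neuroblast-like cells 1.05%, 1.07% and 1.68%. Its share was higher in TBI+IL-25 than in TBI+PBS in all 13 classes, and in 12 of them the interval of the ratio lay above 1. Rps23 took 1.15%, 1.23% and 1.83% in microglia-like and 1.24%, 1.16% and 1.72% in astrocyte-like cells, with class ratios between TBI+IL-25 and TBI+PBS of 1.36 to 2.23.

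Rpl38 took 0.761%, 0.873% and 0.527% of the ribosomal protein UMIs in microglia-like cells and 2.44%, 1.80% and 1.11% in endothelial-like cells. Its share in TBI+IL-25 was 0.510 to 0.835 times that in TBI+PBS over 11 classes. Rpl41 took 6.25%, 6.10% and 3.55% in choroid plexus-like cells, which secrete cerebrospinal fluid, and 1.75%, 1.63% and 1.08% in T cell-like cells. Its class ratios ran from 0.581 to 0.807 over 13 classes. Because the shares of all members sum to the same total, a higher share of some members lowers that of others.

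**Figure D4:**
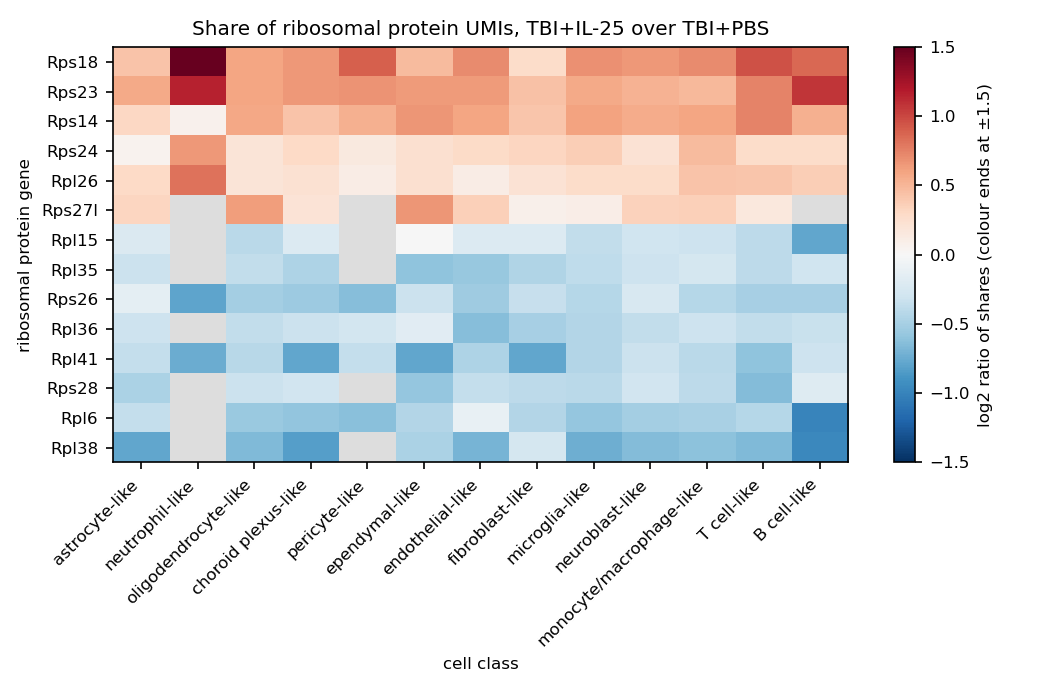
Log2 ratio of each gene's share of the ribosomal protein UMIs between TBI+IL-25 and TBI+PBS (colour) for members with 1 direction in every class compared (rows) over 13 cell classes (columns), with grey where a gene was not compared. Rps18 and Rps23 are higher throughout and Rpl38, Rpl6 and Rps28 lower throughout.

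The balance of the subunits differed too. Large-subunit members held 52.0% of the ribosomal protein UMIs of microglia-like cells in sham, 51.3% after TBI+PBS and 48.7% after TBI+IL-25. In astrocyte-like cells they held 55.8%, 54.6% and 53.5%, and in T cell-like cells 50.5%, 49.6% and 48.1%. The TBI+IL-25 library was lowest in every class measured in it and in TBI+PBS.

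Paralogues were among the members whose use differed most between cell classes. Rps27l, a stress-inducible paralogue of Rps27, gave 12.3% of the UMIs of this pair in sham microglia-like cells (11.8% to 12.9%), 26.0% after TBI+PBS (25.5% to 26.6%) and 28.8% after TBI+IL-25 (28.3% to 29.3%). In astrocyte-like cells it gave 29.1%, 35.7% and 45.2%, in choroid plexus-like cells 38.2%, 44.1% and 48.7%, and in T cell-like cells 2.79%, 3.66% and 4.39%. Sham and TBI+IL-25 differed beyond counting error in the first 3 of these classes and not in T cell-like cells. As a share of all ribosomal protein UMIs in TBI+IL-25, Rps27l ranged from 0.0964% in T cell-like (61 UMIs) to 1.20% in choroid plexus-like cells, 12.4-fold. That was the widest range of any member over classes with at least 50 cells and at least 50 UMIs of the member. In TBI+PBS, where T cell-like cells held 49 UMIs of Rps27l and were left out, its range was 2.99-fold. Other wide ranges were those of Rps4l (7.51-fold in TBI+PBS), Rpl41 (3.74-fold), Rpl7l1 (3.22-fold) and Rpl22l1 (3.06-fold).

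Rpl22l1, a paralogue of Rpl22 that can stand in for it, differed mainly by cell class. It gave 24.7%, 23.2% and 23.9% of the pair in microglia-like cells and 49.1%, 44.7% and 51.3% in astrocyte-like cells. In choroid plexus-like cells it gave 57.1%, 48.1% and 47.7%, and in endothelial-like cells 22.2%, 20.8% and 20.2%. Rpl7l1 gave 20.9%, 16.2% and 13.2% of its pair with Rpl7 in microglia-like and 26.7%, 23.3% and 21.4% in astrocyte-like cells, beside Rpl7 levels of 355, 531 and 662 CPM in microglia-like cells. In T cell-like cells it gave 3.33%, 2.78% and 2.82%.

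Rps4l gave 11.3% of its pair with Rps4x in sham astrocyte-like cells (10.3% to 12.3%), 4.79% after TBI+PBS and 3.26% after TBI+IL-25. The level of Rps4l was 30.7, 28.2 and 27.7 CPM there, and that of Rps4x, given above, was higher in the injured libraries. In endothelial-like cells Rps4l gave 8.00%, 9.07% and 12.96%, and in T cell-like cells 0.275%, 0.481% and 0.0792%, from 1, 7 and 1 UMIs. Rpl39l, known from the testis, had 37, 29 and 71 UMIs in microglia-like cells beside 18594, 29687 and 39360 of Rpl39. Rpl10l, likewise a testis form, had 2 UMIs over all kept cells, both in TBI+PBS.

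**Figure D5:**
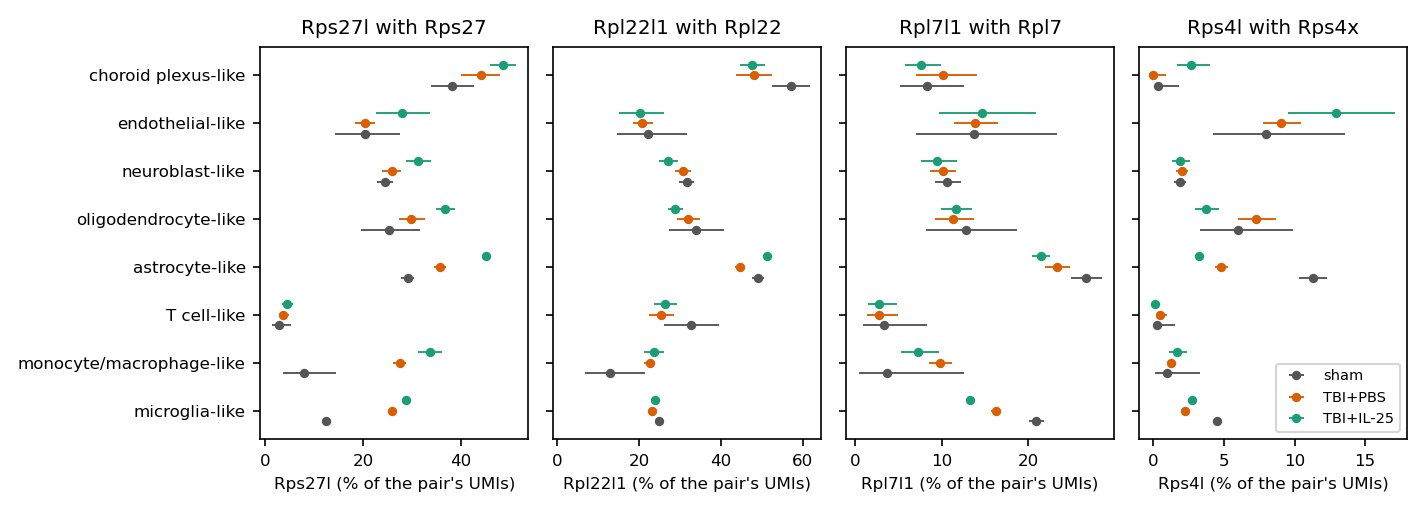
Share of a paralogue in the UMIs of the pair it forms with its parent gene (%, x axis) for 4 pairs in 8 cell classes (y axis), with points for the 3 libraries and 95% Clopper-Pearson intervals. Rps27l runs from 2.79% in sham T cell-like cells to 48.7% in TBI+IL-25 choroid plexus-like cells, and Rps4l from 11.3% in sham to 3.26% in TBI+IL-25 in astrocyte-like cells.

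Counts of members can hold reads from near-identical processed copies elsewhere in the genome. The 322 listed ribosomal pseudogenes had 45800 UMIs, 0.5346% of the members' UMIs, and in microglia-like cells their sum stood at 252 CPM in sham, 342 after TBI+PBS and 493 after TBI+IL-25. Their sum thus had the same order as that of the members, and a member's count is uncertain by what such copies share with it.

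Ribosomal proteins outside the symbol rule were also higher in the injured libraries. In microglia-like cells all 8 were higher in TBI+PBS than in sham, 5 at least 1.5-fold (12.7% of all genes), with a median log2 ratio of 0.78. These values, like those of the lists below, come from whole-class sums. They were not recomputed with clusters weighted equally, and the part of the cluster mix was not tested. Rpsa, a small-subunit protein also known as a laminin receptor, stood at 483 CPM in sham, 1410.3 after TBI+PBS and 1494 after TBI+IL-25. Rplp1, of the elongation factor stalk, stood at 1744, 2864 and 5140.2 CPM. Rack1, the scaffold on the small subunit, stood at 290.4, 713 and 1005 CPM. Between the injured libraries 7 of the 8 were higher in TBI+IL-25 in each class, with medians of 0.31 in microglia-like and 0.41 in astrocyte-like cells. The medians of all genes were -0.08 and -0.21.

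Other messages of the TOP class were higher with the ribosomal proteins between TBI+PBS and sham and more mixed between the injured libraries. Of 19 such genes 18 were higher in TBI+PBS in microglia-like cells, 10 at least 1.5-fold (12.7% of all genes), with a median log2 ratio of 0.64, and in astrocyte-like cells 19 of 19 with a median of 0.59. Between TBI+IL-25 and TBI+PBS 14 of 19 were higher and 5 lower in each class. The median log2 ratio of all genes there was -0.08 in microglia-like and -0.21 in astrocyte-like cells. Tpt1, a growth-related TOP message, stood at 1398, 2028 and 4233 CPM in microglia-like cells. Eef2, the elongation factor that moves the ribosome along, stood at 444, 698 and 372 CPM, 0.533-fold in TBI+IL-25 against TBI+PBS. Eef1a1, which delivers transfer RNA, stood at 2422, 3770.1 and 3337 CPM. The list was not drawn from the motif search above. Of its 13 genes with a RefSeq entry 2 held the run at the annotated start, against 3.008% of all genes. Within 10 bases 5 (38.46%) held one, near the 34.4% of all genes.

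Ribosome biogenesis genes, which make and assemble the subunits, were mostly higher in TBI+PBS than in sham in the whole-class sums of both classes. In microglia-like cells 28 of 30 were higher in TBI+PBS than in sham, 21 at least 1.5-fold (12.7% of all genes), with a median log2 ratio of 0.80. Of the 30 genes 18 were higher in TBI+IL-25 than in TBI+PBS, with a median of 0.14 against -0.08 for all genes. In astrocyte-like cells 29 of 30 were higher in the first comparison (median 0.64, all genes -0.04) and 26 of 30 in the second (median 0.51, all genes -0.21). Myc, a transcription factor that drives ribosome production, stood at 37.5, 94.8 and 132 CPM in microglia-like and 7.13, 47.6 and 102 CPM in astrocyte-like cells. Nhp2, of the snoRNA particles that modify ribosomal RNA, stood at 28.8, 91.6 and 113 CPM in microglia-like cells. Ubtf, a factor of RNA polymerase I, went the other way, at 74.8, 66.8 and 65.0 CPM in microglia-like cells. The difference between the classes was not tested.

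Genes that control translation were divided in microglia-like cells. In microglia-like cells 8 of 19 were higher in TBI+PBS than in sham, with a median log2 ratio of -0.16, near the -0.14 of all genes. Between TBI+IL-25 and TBI+PBS 9 of 20 were higher, with a median of -0.21 against -0.08 for all genes. Eif4ebp1, an mTOR target that holds back initiation, stood at 40.0, 82.2 and 98.6 CPM, while Pdcd4, an inhibitor of the helicase Eif4a, stood at 78.7, 27.3 and 20.7 CPM. Eef2k, the kinase that inhibits Eef2, stood at 174, 77.5 and 52.0 CPM. Larp1, the TOP-binding protein, stood at 68.5, 72.4 and 116 CPM in microglia-like and 66.6, 71.6 and 119 CPM in astrocyte-like cells.

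Mitochondrial ribosomal proteins were mostly higher in TBI+PBS in microglia-like cells and divided in astrocyte-like cells. In microglia-like cells 72 of 77 were higher in TBI+PBS than in sham, with a median log2 ratio of 0.39, but 11 were at least 1.5-fold higher, a share near the 12.7% of all genes. In astrocyte-like cells 37 of 78 were higher and 41 lower, with a median of -0.02, while 76 of 77 cytosolic members were higher in the same cells. Between TBI+IL-25 and TBI+PBS the medians were 0.10 in microglia-like and 0.08 in astrocyte-like cells, against 0.48 for the cytosolic members in both. The medians of all genes were -0.08 and -0.21.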

How the data were processed

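Raw UMI counts per gene and barcode were used as deposited by the authors, with no normalization. Per the file headers they were made with Cell Ranger 7.1.0 (sham, TBI+PBS) and 7.2.0 (TBI+IL-25). GRCm39, Seurat 4.4.0, bcl2fastq 5.0.1 and, for every sample, Cell Ranger 7.2.0 stand in the submitters' processing notes; how barcodes were selected is not given in the sources used here. Tissue was dissociated by enzymes, freed of dead cells and loaded for 8000 expected cells on 3′ chemistry (per the labels' protocols).

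Everything else was computed here (Python 3.11.15, scanpy 1.11.5, SciPy 1.17.1, NumPy 2.4.6, pandas 2.3.3, leidenalg 0.10.2, python-igraph 0.11.9, scikit-learn 1.9.0, Matplotlib 3.10.9). Barcodes below 500 UMIs or 300 genes, or above 20% mitochondrial UMIs, were dropped: 18, 43 and 55 of them. Doublets were scored with Scrublet. Its automatic threshold marked 0.0336% of sham, so a score of 0.2 was used for all libraries, set after the scores were seen. It removed 207, 312 and 647 cells (2.33%, 2.95% and 4.55%). Ribosomal protein genes were left out of doublet scoring, of the normalization total and of the 2000 variable genes, so their share played no part in the clusters (30 principal components, 15 neighbours, Leiden resolution 1, no batch integration). Clusters were named from 22 marker lists by thresholds set after the data were seen.

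UMIs were summed per class and library. CPM is the sum of a gene scaled to a common total of UMIs of the class. Sums have exact Poisson intervals, shares Clopper-Pearson intervals and ratios exact conditional binomial intervals. Members and genes were compared where the 2 sums together reached 50 UMIs, and a fold of 1.5 was the size named. No p-value is given, since no group has a replicate. The interval code was tested on simulated data. Named were the 10 members with the highest CPM, the 4 highest and 4 lowest ratios per comparison in microglia-like and astrocyte-like cells, the 6 with the widest range over classes, the paralogues, and up to 3 highest and lowest of each other list. A few further members and list genes were named after their values were seen. Members, lists and comparisons were chosen with earlier results of these data known. Start sequences come from RefSeq tables of GRCm38.p6. Protein sequences were not used here. A few genes are not reported here by name; they stay in the counts.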

Additional observations from a re-analysis of the deposited data

Results flagged for a closer look

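Among classes with at least 20 cells in both libraries, and among single members between astrocyte-like and microglia-like cells, 4 values went the other way from the microglia-like cells under the same pair of libraries, with intervals on opposite sides of 1. The difference between the classes was not tested in any of them, since each group has 1 library.

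The ribosomal protein share of ependymal-like cells in TBI+IL-25 was 0.741 times that in TBI+PBS (5.15% of UMIs in 49 cells against 6.95% in 27 cells), where microglia-like cells gave 1.36. The median per cell was 5.36% and 5.55%, closer together than the summed shares, and the cells held a median of 6696 and 11345 UMIs. In fibroblast-like cells the same ratio was 0.900 (6.83% in 25 cells against 7.59% in 23 cells). The neuroblast-like share in TBI+PBS was 0.959 times that in sham (7.83% in 256 cells against 8.16% in 253 cells), where microglia-like cells gave 1.56. Rpl6 was 1.10-fold higher in TBI+IL-25 than in TBI+PBS in astrocyte-like cells and 0.910-fold in microglia-like cells, with counting intervals that did not overlap. With clusters weighted equally its astrocyte-like ratio was 0.859 and its microglia-like ratio 0.901, so both classes then lay on the same side. Smaller classes went the other way too. Between TBI+PBS and sham the share ratio was 0.926 in T cell-like cells (14 sham cells) and 0.708 in monocyte/macrophage-like cells (10 sham cells). It was 0.920 between TBI+IL-25 and TBI+PBS in pericyte-like cells (18 and 15 cells) and 0.902 between TBI+IL-25 and sham in monocyte/macrophage-like cells. The median pericyte-like cell held 4.27% in TBI+IL-25 and 3.63% in TBI+PBS, the reverse of the summed shares.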

How the results depend on the processing

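Of 66 recomputed share ratios none reversed, 14 stayed within the counting interval and 52 moved (1.07 to 2.49). Of 66 recomputed counts of members past 1.5-fold 53 stayed within 1.5 times the reported count and 13 did not. No paired analysis was possible because each group has 1 library, and no replicate could be left out. The cause of the changes below was not tested, beyond what each setting does by construction.

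Ratios of the share follow in the order microglia-like, astrocyte-like. For TBI+PBS over sham (1.56, 1.48) they were 1.5745 and 1.4868 with the 8 further ribosomal genes added, 1.335 and 1.2242 in cells of 2000 to 8000 UMIs, 1.5042 and 1.445 with classes from marker scores per cell, 1.5997 and 1.4977 with doublets kept, 1.6996 and 1.4986 with median-of-ratios size factors, and 1.0894 and 1.0713 with clusters weighted equally. For microglia-like cells alone they were 1.499 with each cell weighed equally and 1.5708 without mitochondrial and ribosomal RNA genes in the total. For astrocyte-like cells alone they were 1.4661 in cells of at least 1000 UMIs, 1.4614 at clustering resolution 0.5 and 1.3838 without the shallow clusters.

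For TBI+IL-25 over TBI+PBS (1.36, 1.40) they were 1.4613 and 1.7339 in cells of 2000 to 8000 UMIs, 1.3529 and 1.4135 in cells of at least 1000 UMIs, 1.4009 and 1.4305 with marker scores, 1.3483 and 1.1475 with clusters weighted equally, 1.3293 and 1.4871 with doublets kept, 1.5314 and 1.2819 with each cell weighed equally, 1.463 and 1.619 with median-of-ratios size factors, and 1.3655 and 1.4331 without mitochondrial and ribosomal RNA genes. The microglia-like ratio was 1.3653 with the 8 genes added. The astrocyte-like ratio was 1.4135 at resolution 0.5 and 1.4843 without the shallow clusters.

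For TBI+IL-25 over sham (2.12, 2.07) they were 2.1497 and 2.0861 with the 8 genes added, 1.9509 and 2.1226 in cells of 2000 to 8000 UMIs, 1.7208 and 1.2688 with clusters weighted equally, 2.2956 and 1.8939 with each cell weighed equally, 2.4864 and 2.4262 with median-of-ratios size factors, and 2.145 and 2.1179 without mitochondrial and ribosomal RNA genes. The microglia-like ratio was 2.1118 in cells of at least 1000 UMIs and 2.1073 with marker scores. The astrocyte-like ratio was 2.2272 with doublets kept and 2.054 without the shallow clusters.

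Members past 1.5-fold between TBI+PBS and sham (49, 33) numbered 22 and 2 in cells of 2000 to 8000 UMIs and 2 and 0 with clusters weighted equally. For TBI+IL-25 against TBI+PBS (17, 27) they numbered 37 and 60 in cells of 2000 to 8000 UMIs, 44 and 13 with each cell weighed equally, and 40 and 50 with median-of-ratios size factors. There the microglia-like count was 26 with marker scores and the astrocyte-like count 3 with clusters weighted equally. Between TBI+IL-25 and sham (67, 68) the astrocyte-like count was 13 with clusters weighted equally. Size factors shifted the log2 ratios of all genes by 0.12 and 0.02 for TBI+PBS over sham, 0.11 and 0.21 for TBI+IL-25 over TBI+PBS, and 0.23 and 0.23 for TBI+IL-25 over sham. Equal weights use only clusters with at least 20 cells in both libraries, each weighted by its UMIs in the 2 together. Against sham they leave out microglia-like clusters 6, 8 and 16 and astrocyte-like clusters 4, 7, 13 and 26. Equal weights and the removal of shallow clusters were chosen after seeing the data. Depth limits the rare classes, several with under 50 cells, and the members with few UMIs.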
